A study of Mus musculus with 4 samples.

Results

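The 8 genes described here encode the proteins that write, copy and remove DNA methylation in mouse cells, and the question asked of the data was where Zeb1 was found on them in embryonic stem (ES) cells. The genes were Dnmt1, Dnmt3a, Dnmt3b, Dnmt3l, Uhrf1, Tet1, Tet2 and Tet3. A peak counted for a gene when the list of Zeb1 peaks gave that gene's symbol for it, and 11 of the 17435 peaks did so. Of the 8 genes, 7 had such a peak and 1, Tet1, had none. The label of DNA methylation and demethylation enzymes holds loosely for this set. Dnmt3l has no catalytic activity. Uhrf1 is an enzyme of another kind, a ubiquitin ligase that reads methylated DNA and is not a methyltransferase.

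Zeb1 chromatin immunoprecipitation followed by sequencing (ChIP-seq) was performed in 3 libraries against 1 input library, which had no antibody. All came from the mouse ES cell line D3, grown without feeder cells in ground state (GS) medium, which holds the MEK inhibitor PD0325901 (1 µM), the GSK-3 inhibitor CHIR99021 (3 µM) and LIF (20 ng/mL). The sample labels do not say whether the libraries came from separate cultures, and D3 is 1 cell line. There was 1 culture condition, so no comparison between conditions could be made. Peaks were listed in mm10 (GRCm38) coordinates with the authors' mean values and no value per library. The study's methods describe an average of per-sample values of the unified peaks, but some deposited means, such as 31.6 ChIP reads at Dnmt3a, cannot be the average of 3 whole counts. Either the averaged values were not whole, as may follow from the depth normalization in the study's methods, or their number differs between peaks. Which of these holds was not tested, so reads, reads per kb and their ranks may not be fully comparable from peak to peak. No value below therefore has a replicate error and no difference was tested. The list holds no expression values, so ES cell markers could not be used to check the identity of the cells.

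Methyl groups are set on cytosines of CpG sites by Dnmt3a and Dnmt3b, with Dnmt3l as a cofactor, and are copied to the new strand after replication by Dnmt1, which Uhrf1 brings to hemimethylated CpG. Tet1, Tet2 and Tet3 oxidize 5-methylcytosine, which opens the way to its removal. ES cells in the ground state are known for a low level of DNA methylation, and Zeb1 is a zinc-finger and homeodomain factor that binds E-box sequences and is best known as a repressor of epithelial genes.

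The sequences under the peaks are shown first, because Zeb1 has a known DNA motif and the promoters of these genes differ in CpG content. The motif searched was CNCACCTG, CNTACCTG, TNCACCTG or TNTACCTG on both strands, and the forms that end in CACCTG contain the E-box core CACCTG. It occurred in 9 of the 11 peaks assigned to the 8 genes, beside 76.8% of all peaks in the list. On the forward strand alone it also occurred in 9 of the 11, beside 54.4% of all peaks. On both strands the 11 peaks held 23 matches, 17 of them with the core. The Tet2 promoter peak and the Dnmt3a peak 1015 bp downstream of its transcription start site (TSS) had no match, although the latter held 2 copies of the core. A match says only that these letters are present. The matches nearest to a coding TSS inside promoter peaks are given below with 10 bases on either side, read 5′ to 3′ on the strand of the match (GRCm38), with the match in capitals.
Dnmt1, intron (chr9:20951831-20951858, plus strand): aatgggggacTTTACCTGccatccctca
Uhrf1, intron (chr17:56304381-56304408, minus strand): tggccacaaaCTCACCTGaaccccaccc
Dnmt3a, upstream of the TSS (chr12:3806590-3806617, minus strand): gcggcgccccTCTACCTGgcgcggcttc
Dnmt3b, upstream of the TSS (chr2:153649192-153649219, minus strand): cccagccctcTCCACCTGagacaccccc
Tet3, exon that is 5′ UTR or coding by transcript (chr6:83441259-83441286, plus strand): agcatttattTCCACCTGcaaaagaagc

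These matches lay 779 bp downstream of a coding TSS in Dnmt1, 81 bp downstream in Uhrf1, 377 bp upstream in Dnmt3a, 244 bp upstream in Dnmt3b and 406 bp downstream in Tet3. Of the 23 matches, 8 lay within 250 bp of the peak centre, and the median distance from it was 439 bp. The central 500 bp held a match in 6 of the 11 peaks, beside 34.6% of all peaks. Whether the matches lay nearer to the centre than an even spread would place them was not tested.

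**Figure D1:**
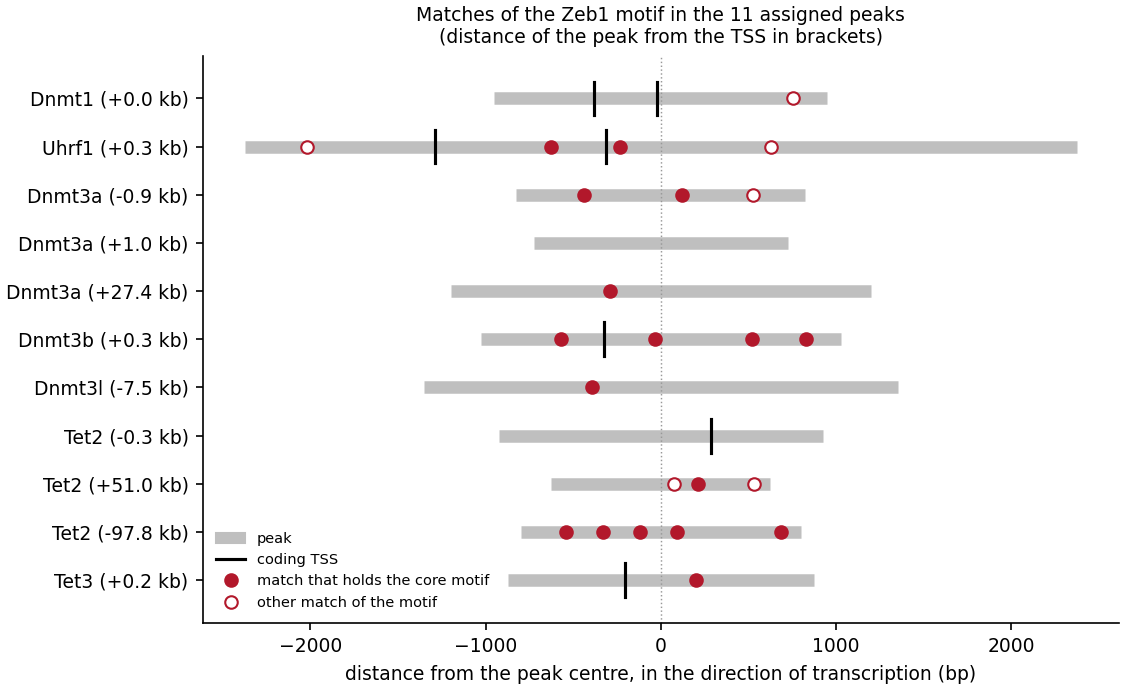
Matches of the Zeb1 motif (circles) along the 11 peaks assigned to the genes (grey bars), in bp from the peak centre in the direction of transcription, with coding TSSs as black ticks. Of the 23 matches, 8 are within 250 bp of the centre, and the Tet2 promoter peak and the Dnmt3a peak at 1.0 kb have none.

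Promoter stretches of 150 bases that end at the base before the TSS are shown for a gene with a promoter peak and the highest enrichment of the set (Dnmt3b), for a promoter peak with no motif match (Tet2), for the gene with no peak (Tet1) and for the internal start site of Dnmt3a, which has none. The sequences are from RefSeq (GRCm38.p6), where all 8 genes had an entry, and are read in the direction of transcription with CpG sites in capitals.
Dnmt3b (chr2:153649299-153649448, plus strand): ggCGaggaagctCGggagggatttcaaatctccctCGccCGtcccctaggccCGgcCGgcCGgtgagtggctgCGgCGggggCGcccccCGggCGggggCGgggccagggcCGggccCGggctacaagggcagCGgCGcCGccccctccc
Tet2 (chr3:133544391-133544540, minus strand): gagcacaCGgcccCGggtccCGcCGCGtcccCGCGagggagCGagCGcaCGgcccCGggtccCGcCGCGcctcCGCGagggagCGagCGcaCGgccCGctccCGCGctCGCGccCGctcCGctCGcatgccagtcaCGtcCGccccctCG
Tet1 (chr10:62887325-62887474, minus strand): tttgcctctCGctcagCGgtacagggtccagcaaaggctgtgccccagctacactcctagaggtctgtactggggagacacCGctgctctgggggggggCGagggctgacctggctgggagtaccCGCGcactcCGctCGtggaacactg
Dnmt3a, internal TSS (chr12:3891594-3891743, plus strand): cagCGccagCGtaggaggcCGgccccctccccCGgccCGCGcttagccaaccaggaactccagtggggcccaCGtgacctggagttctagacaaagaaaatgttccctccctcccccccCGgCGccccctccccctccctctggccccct

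Within these 150 bases Dnmt3b had 18 CpG sites, Tet2 had 30, Tet1 had 8 and the internal Dnmt3a start had 9. None of the 4 stretches contained the motif. Over the promoter windows of 300 bases in the same RefSeq table, 16.9% of 32851 held a match, and 3 of the 15 windows of the 8 genes did.

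Across the set, 7 of 8 genes had an assigned peak, beside 53.3% of 21000 protein-coding RefSeq genes. A peak with its centre less than 5 kb from the TSS, the limit the study used for promoters, was assigned to 6 of 8, beside 45.1%. The exceptions were Dnmt3l, whose peak was farther away, and Tet1. Dnmt3a and Tet2 had 3 assigned peaks each and the other 5 genes with a peak had 1 each. A count of 3 or more was found for 4.59% of protein-coding genes. With 8 genes chosen for their function, these shares are descriptions, not tests.

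The enrichment, the authors' mean ratio of ChIP to input reads after normalization for mapped reads, had a median of 6.54 over the 11 peaks and of 6.50 over all peaks, so the set as a whole sat at the middle of the list. It ranged from 3.03 to 11.9, and 6 of the 11 peaks were above the list median. The enrichment is not the plain ratio of the mean reads given below. That ratio had a median of 3.22 over the 11 peaks and of 3.13 over all peaks. The best promoter peaks of the 6 genes with one had a median enrichment of 7.69, beside 6.84 over the 9470 protein-coding genes with a peak there. In read density the 11 peaks were lower: the median was 21.2 ChIP reads per kb of peak against 25.1 over the list, and 7.03 input reads per kb against 8.07. Only 3 of the 11 peaks were above the list median in ChIP reads per kb, namely those at the promoters of Dnmt1 and Tet3 and the distant upstream peak of Tet2.

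**Figure D2:**
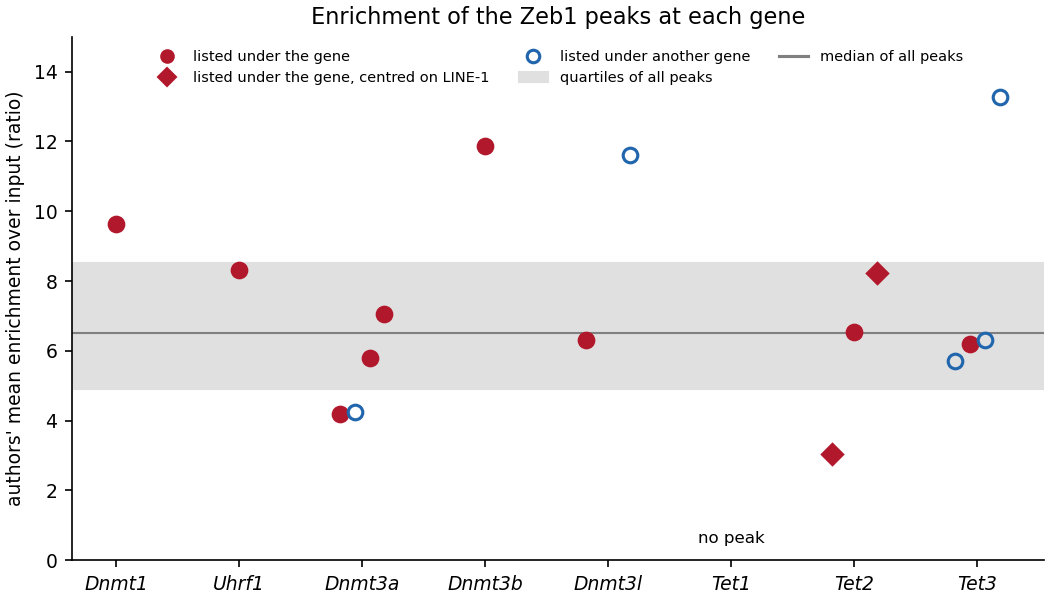
Enrichment over input (authors' mean ratio) of each peak at the 8 genes, for peaks listed under the gene (filled) or under another gene (open); diamonds are peaks centred on a LINE-1 element, and the band and line are the quartiles (4.91 and 8.53) and median (6.50) of all 17435 peaks. Dnmt3b at 11.9 and Dnmt1 at 9.63 stand above the band, and the highest value, 13.271, is a peak inside Tet3 listed under Mir6374.

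The maintenance genes Dnmt1 and Uhrf1 each had a single peak, which covered part of the start sites of Dnmt1 and all of those of Uhrf1. The Dnmt1 peak (chr9:20951651-20953550, 1900 bp) was centred 23 bp downstream of a TSS and had 74.7 mean ChIP reads, 15.4 mean input reads and an enrichment of 9.63, higher than 83.2% of the list. Its 39.3 ChIP reads per kb were the densest of the 11 peaks and exceeded 92.5% of the list, whereas its 8.12 input reads per kb were near the median. Dnmt1 has 3 coding start sites in RefSeq. The peak covered a pair of them, 6909 and 7265 bp downstream of the most upstream start, which itself lay 6338 bp from the peak edge and outside any peak. The 2 kb around that uncovered start had 28 CpG sites and 3 motif matches, whereas the 2 kb around the covered starts had 74 and 88 CpG sites and 0 and 1 matches.

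The Uhrf1 peak (chr17:56302251-56307000) was 4750 bp long, longer than 97.2% of the list, and covered both coding start sites of the gene, which are 976 bp apart. It had 88.7 mean ChIP reads, 20.2 mean input reads and an enrichment of 8.31, above 73.1% of peaks. Per kb the ChIP reads were 18.7, above only 17.2% of peaks, and the input reads were 4.26, above only 7.94% of peaks. Uhrf1 is 20.2 kb long, and 18.2% of it lay under the peak.

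Among the de novo methyltransferase genes, Dnmt3b had the highest enrichment of the 11 peaks and Dnmt3a the most peaks. The Dnmt3b peak (chr2:153648751-153650800, 2050 bp) was centred in the first intron, 326 bp downstream of the TSS that all 9 curated coding transcripts share, and was annotated as a CpG island. It had 48.4 mean ChIP reads, 9.14 mean input reads and an enrichment of 11.9, which exceeded 92.4% of the list. The ChIP density was 23.6 reads per kb, above 42.2% of peaks, and the input density was low, as in Uhrf1, at 4.46 reads per kb, above 9.37% of peaks. The peak held 4 motif matches, all with the core, where the median of the 2202 peaks within 100 bp of its length was 2. The match nearest to its centre was 34 bp away, the closest in the set:
Dnmt3b, intron (chr2:153649728-153649755, minus strand): gcgcgtggcgCTCACCTGtcgtgaggct

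At Dnmt3a a pair of peaks flanked the start sites of the long transcripts without covering them. The upstream peak (chr12:3805251-3806900, 1650 bp) had its centre 905 bp upstream of the start site, with 28 mean ChIP reads, 13 mean input reads and an enrichment of 4.20, above 14.9% of the list. The downstream peak (chr12:3807451-3808900, 1450 bp) was centred in the first intron 1015 bp downstream of the TSS and had 31.6 mean ChIP reads, 9.80 mean input reads and an enrichment of 7.06, above 58.1%. Both long-form start sites fell in the 550 bp between them (chr12:3806901-3807450), which were 80.2% G and C with 91 CpG sites. The downstream peak was the richest of the 11 in G and C, at 72.2% against a median of 56.8% over all peaks within 5 kb of a TSS, and no peak in the list had a higher share.

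The remaining Dnmt3a peaks lay inside the gene, with enrichment below the list median. The nearer (chr12:3833401-3835800), centred in the first intron 27440 bp downstream of the TSS, had 43.5 mean ChIP reads, 14.5 mean input reads, an enrichment of 5.80 and a CpG observed-to-expected ratio of 0.189, above only 5.21% of the list. The farther (chr12:3869951-3872050), in intron 4, was listed under the antisense gene Dnmt3aos and had an enrichment of 4.25 with 27.5 mean ChIP reads and 12.5 mean input reads. The short form, Dnmt3a2, which is known as the main form in ES cells, starts at an internal TSS 84.8 kb downstream of the first. No peak covered that start: the nearest lay 19694 bp upstream (the Dnmt3aos peak) and 88407 bp downstream. The 2 kb around the internal start held 5 motif matches and 74 CpG sites. For match counts in 2 kb around a TSS, at this and the other genes, no value over all TSSs is given here.

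Dnmt3l, the cofactor without catalytic activity, had 4 coding start sites and no peak within 5 kb of any. The peak listed under its symbol (chr10:78033401-78036100, 2700 bp) was centred 7537 bp upstream, in intron 9 of the neighbouring gene Aire, with 48.9 mean ChIP reads, 16 mean input reads and an enrichment of 6.30. No peak overlapped the gene. On the other side, the promoter peak of Icosl (chr10:78068501-78070450) began 4879 bp past the end of Dnmt3l and had an enrichment of 11.6 with 69.2 mean ChIP reads and 12.6 mean input reads. The start regions of Dnmt3l were poor in CpG, with 25 to 47 sites in the 2 kb around each TSS. The most upstream start had 5 motif matches in its 2 kb, as many as the internal Dnmt3a start, and the others had 0 or 1.

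**Figure D3:**
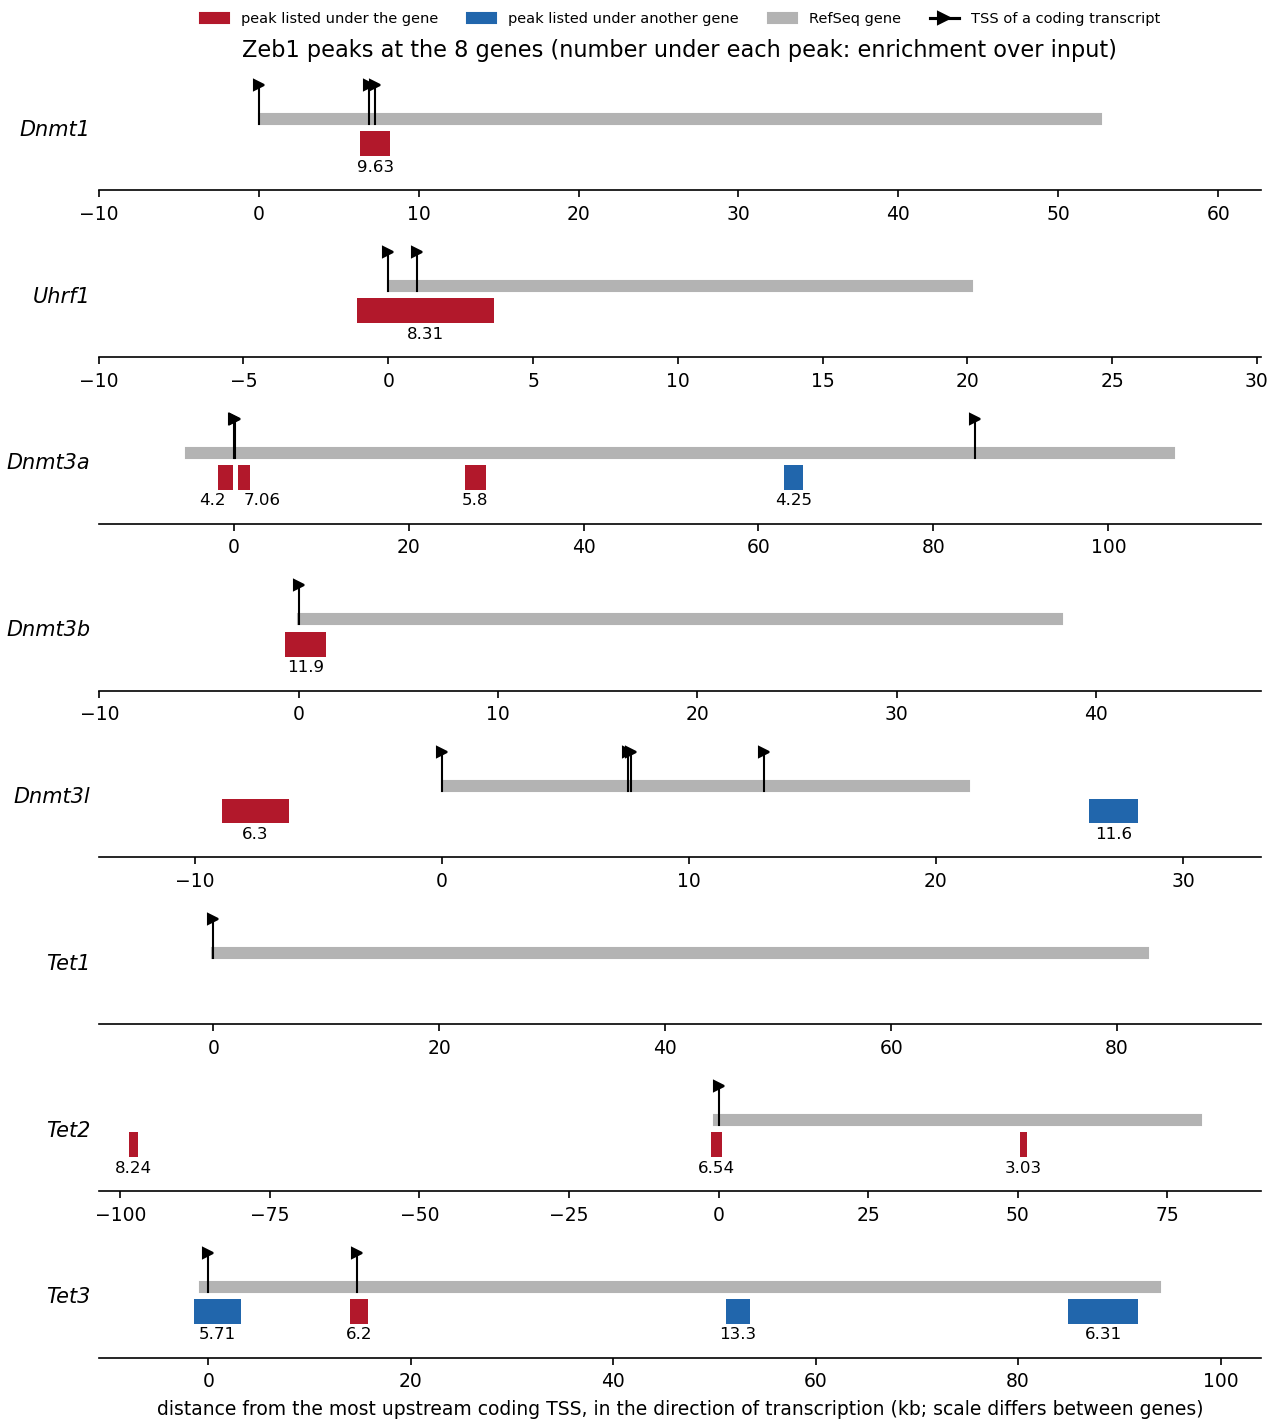
Zeb1 peaks along the 8 genes, in kb from the most upstream coding TSS in the direction of transcription, with genes in grey, coding TSSs as arrows and the enrichment under each peak; red peaks are listed under the gene and blue ones under another gene. Peaks cover the start sites of Dnmt3b, Tet2, Tet3 and Uhrf1 and part of those of Dnmt1, and flank those of the long Dnmt3a forms. No peak overlaps Dnmt3l or Tet1, and none covers the internal Dnmt3a start.

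The Tet genes ranged from no peak at Tet1 to 4 overlapping peaks at Tet3. Tet1, the oxidase known for high expression in ES cells, lay in 126750 bp without a listed peak. The nearest peak upstream of its TSS was 32477 bp away and was listed under Slc25a16 (enrichment 6.69), and downstream of the gene the nearest was that of Ccar1 (enrichment 11.4), 11520 bp past the end of Tet1. Absence from the list says that no region passed the authors' limits in at least 2 of the 3 libraries, not that Zeb1 was absent. The 2 kb around the Tet1 TSS were not poor in CpG, with 87 sites and an observed-to-expected ratio of 0.618, beside a median ratio of 0.643 in promoter peaks of the list, and they held 3 motif matches. The matches nearest to the TSS were 80 bp downstream, in the 5′ UTR, and 656 bp upstream.
Tet1, 5′ UTR (chr10:62887231-62887258, minus strand): gtcatgtaccTCTACCTGcctcttctac
Tet1, upstream of the TSS (chr10:62887967-62887994, minus strand): ttttctccctTCCACCTGaagcagtaga

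Tet2 had a promoter peak near the middle of the list and a pair of distant peaks on repeats. The promoter peak (chr3:133543751-133545600, 1850 bp) had its centre 285 bp upstream of the start site, with 39.1 mean ChIP reads, 13 mean input reads and an enrichment of 6.54. Its CpG observed-to-expected ratio, 0.826, was higher than that of 93.1% of peaks, and it contained neither the motif nor its core. A LINE-1 element lay at the centre of 2 of the 11 assigned peaks, both of them listed under Tet2, beside 14.2% of all peaks. The peak in intron 2 (chr3:133492751-133494000, 1250 bp), 51015 bp downstream of the TSS on an element of the family L1_Mus3, had 26.3 mean ChIP reads, 19 mean input reads and an enrichment of 3.03, the lowest of the set and above only 5.06% of the list. Its 15.2 input reads per kb exceeded those of 93.7% of peaks.

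The other LINE-1 peak (chr3:133641401-133643000, 1600 bp) was centred 97810 bp upstream of Tet2 on an element of the family L1Md_T, and had 51.3 mean ChIP reads, 13.6 mean input reads and an enrichment of 8.24, the highest of the Tet2 peaks. It held 5 motif matches, the most among the 11 peaks, a number reached by 8.27% of all peaks and by 14.5% of the 1203 peaks centred on L1Md_T. Of these 5, 4 had the same letters on the same strand at an even spacing of 212 bp, and their surroundings were nearly identical, with 27 or 28 of 28 bases shared between neighbours. They are printed in order to show this repeat.
Match 1 (chr3:133642094-133642121, plus strand): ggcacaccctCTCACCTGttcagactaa
Match 2 (chr3:133642306-133642333, plus strand): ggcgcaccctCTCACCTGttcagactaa
Match 3 (chr3:133642518-133642545, plus strand): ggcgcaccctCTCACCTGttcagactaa
Match 4 (chr3:133642730-133642757, plus strand): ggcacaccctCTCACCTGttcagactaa

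The start of L1Md_T elements is known to be built from tandem monomers. The authors kept uniquely aligned reads, and how many reads from other copies of the element could not be placed is not given in the sources used here.

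**Figure D4:**
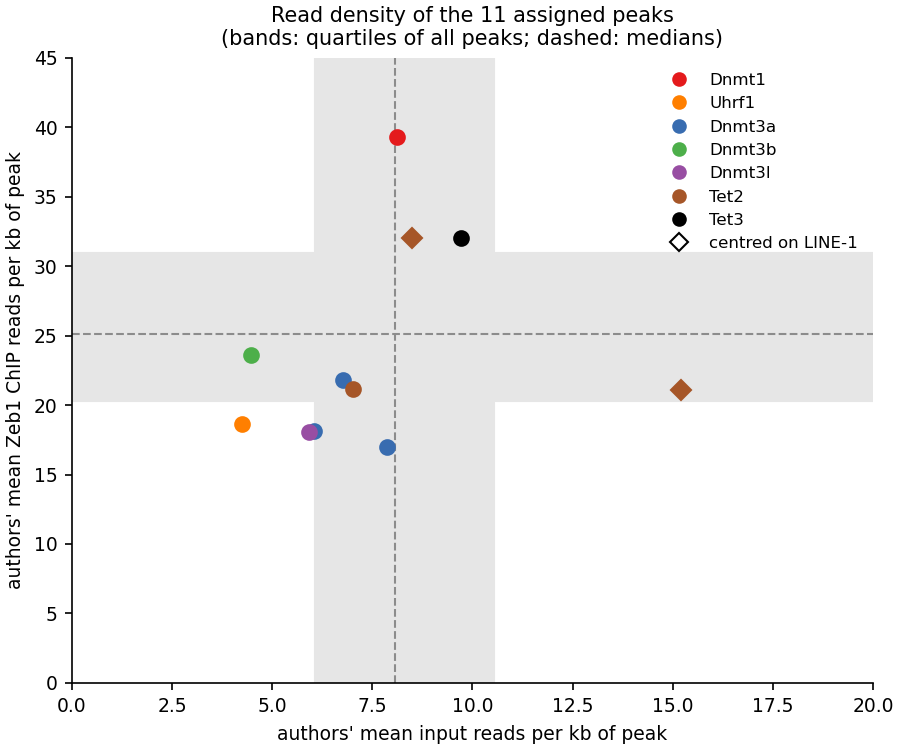
Mean ChIP reads per kb against mean input reads per kb (authors' means divided by peak length) for the 11 assigned peaks, with the quartiles (bands) and medians (dashed) of all peaks; diamonds are centred on LINE-1. The Dnmt1 peak is densest in ChIP reads (39.3), Uhrf1 and Dnmt3b have the lowest input density (4.26 and 4.46), and the Tet2 peak on L1_Mus3 has the highest (15.2).

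Tet3 was listed with 1 peak, but 4 peaks overlapped the gene, and 16.0% of its 94.8 kb lay under them. The listed peak (chr6:83440601-83442350, 1750 bp), centred 203 bp downstream of a TSS, had 56 mean ChIP reads, 17 mean input reads and an enrichment of 6.20. A second coding start lies 14.7 kb upstream and was covered by a peak of 4650 bp (chr6:83453151-83457800) that was listed under B230319C09Rik, with 92.4 mean ChIP reads, 32.7 mean input reads and an enrichment of 5.71. The peak with the highest enrichment at any of the 8 genes, 13.271 and above 95.0% of the list, lay inside Tet3 with its centre in a coding exon (chr6:83402851-83405250). It was listed under the microRNA gene Mir6374 and had 69.6 mean ChIP reads and 10.3 mean input reads, with 4.29 input reads per kb, above 8.04% of peaks. A peak of 7000 bp, longer than 99.3% of the list, was centred in the 3′ UTR of the last exon (chr6:83364501-83371500) and was listed under Bola3, with 137 mean ChIP reads, 37.9 mean input reads and an enrichment of 6.31.

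Both motif matches of the Mir6374 peak lay in coding sequence of Tet3, 558 and 323 bp from its centre.
Tet3, coding exon (chr6:83403479-83403506, minus strand): cccctcccggCTCACCTGccccaaggcc
Tet3, coding exon (chr6:83404360-83404387, minus strand): accacccaacTGCACCTGcgatggccca

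Counting peaks by overlap with the gene and 5 kb on either side, whatever symbol was listed, 7 of 8 genes had a peak, beside 58.1% of protein-coding genes, and the exception was again Tet1. Dnmt3l counted here through the Icosl peak only. Dnmt3a and Tet3 had 4 overlapping peaks each, a number reached by 2.30% of protein-coding genes and by 3.36% of the 1189 genes within 20% of the length of Tet3. In all, 4 peaks inside these genes were listed under other symbols, 3 of them in Tet3 and 1 in Dnmt3a.

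Start sites gave a lower share than gene counts, but a gene with several start sites counts more than once. The 32 curated coding transcripts of the 8 genes begin at 17 distinct TSSs, of which 8 lay inside a peak, close to the 45.6% of 25999 TSSs over all protein-coding genes. Dnmt3a gave 3 of the 17 and Dnmt3l 4, none of them inside a peak. By gene, 5 of the 8 had a TSS inside a peak, and the matching share of all protein-coding genes is not given here. Of the 4 genes with start sites 5 kb or more apart, Tet3 had all of them inside peaks, Dnmt1 some, and Dnmt3a and Dnmt3l none. Over the 1376 protein-coding genes with such a distance, 9.30% had all inside, 56.0% some and 34.7% none.

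The promoter peaks of the 8 genes were rich in G and C. Of the 7 assigned peaks within 5 kb of a TSS, 6 exceeded the median of 56.8% over all such peaks, with Uhrf1 at 56.0% as the exception, whereas their median CpG observed-to-expected ratio, 0.595, was below the 0.643 of all such peaks. Across the 7 peaks that ratio ran from 0.450 in Uhrf1 to 0.826 in Tet2.

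Other genes of the pathway were counted by the same rule. Of 61 related genes in 9 groups, 33 (54.1%) had an assigned peak within 5 kb of the TSS, beside 45.1% of protein-coding genes, and their best promoter peaks had a median enrichment of 7.55. Among partners of maintenance methylation 4 of 6 had such a peak, from Uhrf2, the relative of Uhrf1, at 8.38 to the deubiquitinase Usp7 at 4.64, and Pcna and Lig1 had none. In a group set up around the protection of methylation at imprints or in the oocyte, 2 of 6 did, Zfp57 at 7.27 and Trim28 at 6.42. Dppa3, Zfp445, Setdb1 and Prdm14 did not, and the label of protection does not hold for Prdm14. Among histone methyltransferases 5 of 6 did, from the H3K36 enzyme Nsd1 at 9.90 to the H3K9 enzyme Ehmt1 at 3.66, with Nsd2 as the exception.

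Of the readers of methylated CpG 2 of 8 had an assigned promoter peak, Zbtb4 at 14.65 and Zbtb33 at 6.30, and Mbd1, Mbd2, Mbd3, Mbd4 and Zbtb38 were among those without one, although Mbd2 and Zbtb38 each had 1 assigned peak farther away. Of the CXXC genes, whose proteins bind unmethylated CpG, 5 of 7 had one, from Cxxc1 at 8.84 to Kdm2b at 5.35, and Cxxc4 and Kmt2b did not. Of the Tet partners and base excision repair genes 5 of 14 did, and 8 had a coding TSS inside a peak whatever its listed symbol. The latter held for 39 of all 61 related genes. The matching share of all protein-coding genes is not given here. The 45.6% of the 25999 single TSSs inside a peak is in another unit, because a gene can have several start sites. Tet partners and repair genes with an assigned promoter peak ran from Gadd45g at 12.0 to Xrcc1 at 4.96. Tdg, Ogt, Smug1, Neil1, Apex1, Lig3, Gadd45a and Apobec1 were among those without one. Of the genes that supply S-adenosylmethionine, the methyl donor, 6 of 8 had one, from Mtrr at 10.6 to Shmt1 at 4.95, and Mtr was among those without one. Trdmt1, a relative of the Dnmt genes that methylates RNA, had no peak. Of the 28 related genes without an assigned promoter peak, 7 had a coding TSS inside a peak that was not assigned to them within that distance, among them Lig1, Zbtb38, Kmt2b, Tdg, Apex1 and Gadd45a.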

How the data were processed

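Reads of 3 Zeb1 ChIP libraries and 1 input library, at least 20 M raw reads each per the labels, were trimmed, aligned to mm10 with STAR 2.4.2a keeping unique alignments, and deduplicated with Picard 1.136 by the authors, who called broad peaks per library, unified those found in at least 2 libraries and annotated them with HOMER 4.7. Treatment and input reads per peak are a signal, the authors' averages, and whether these carry the depth normalization of the study's methods was not tested. The enrichment is the deposited mean ratio of treatment to input. The deposited p-value was 0 for all 17435 peaks and ranked nothing. Total depth per library was not used here.

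From this list, peaks were taken by gene symbol, divided by length, and set against curated RefSeq transcripts and sequence (GRCm38.p6) with Python 3.11.15, pandas 2.3.3 and pysam 0.24.0. Positive distances run downstream, as checked in the reference. Counting functions were tested on simulated sequences. For the background, 16536 peaks were named by symbol, 858 by transcript and 26 by synonym, and 15 stayed unnamed. Named were all 8 genes, genes given to peaks at them, and in each related group the extremes and those without a promoter peak, of which some results are not reported here; Aire, Slc25a16 and Ccar1 were added after their values were seen. The genes and groups were chosen with earlier results of these data known. Alternatives were stricter enrichment, other distances, gene assignment, motif forms and peak subsets.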

Additional observations from a re-analysis of the deposited data

How the results depend on the processing

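Each of the 23 alternatives paired 1 result with 1 setting, and 3 of them moved the result. All 3 were for the median enrichment of the assigned peaks, 6.54 in the main setting. The only other alternative run for that median left out LINE-1 peaks, and the median stayed at 6.54. It was 3.22 as the plain ratio of the authors' mean ChIP to mean input reads (3.13 over all peaks by the same ratio), 7.06 over promoter peaks alone, and 8.24 with the best peak of each gene. Why the plain ratio is lower than the authors' enrichment was not tested. The other 20 were also pairs of a result and a setting. Some settings, such as the stricter enrichment, were run for more than 1 result, but no result was tried under all settings. Where run, genes with an assigned peak stayed at 7 and those with a promoter peak were 6 or 7. Assigned peaks ran from 9 to 14 in place of 11, and peaks with a motif match from 6 to 9 in place of 9. Related genes with a promoter peak ran from 29 to 40 in place of 33. Of the 20, leaving out LINE-1 peaks (9 peaks, same median) and counting any peak within 5 kb of a RefSeq TSS were chosen after seeing the data. The latter rule gave 40 of 61 related genes (65.6%), beside 51.5% of protein-coding genes. Leaving out each ChIP library was not run, because the list gives means only. No paired analysis was possible because the input is 1 library and no test was made.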
